A study of Mus musculus with 24 samples.

Results

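Untreated MC38 cells carrying guide RNAs against Ado were compared with untreated MC38 cells carrying control guide RNAs, in 8 of the 24 libraries of the study. MC38 is a mouse colon carcinoma line. The labels give the 4 untreated libraries with Ado gRNA 1 or Ado gRNA 2 the genotype Ado KO and the 4 with Control gRNA 1 or Control gRNA 2 the genotype control, with 2 libraries for each of the 4 guide populations. All were grown in DMEM with serum and received no TNF, the inflammatory cytokine given for 1 h or 6 h to the same populations in the other 16 libraries. The 3' ends of polyadenylated transcripts were sequenced (QuantSeq). The deposited table gives 1 normalised value per gene and library in log2 CPM, that is, log2 of tags scaled to a common total. Quantile normalisation was also inferred from the values, so shares of CPM are not exact shares of tags. Of the 15390 genes in the table, 13272 reached 0 log2 CPM in at least 4 libraries and entered the comparison. Libraries are named by guide and replicate, so that Ado 2-1 is replicate 1 of Ado guide 2. The labels do not say whether replicates were separate cultures or whether a guide population was a clone or a pool, and the p-values below cover the spread among these libraries alone, which could be technical. With 2 guide populations per genotype, an effect of Ado loss cannot be told apart from other differences between these populations.

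Ado encodes a thiol dioxygenase that uses oxygen to oxidise cysteamine, a product of coenzyme A breakdown, to hypotaurine. The same enzyme oxidises an exposed N-terminal cysteine of a few proteins, which then receive an arginine and are degraded by the Arg/N-degron pathway, so that these proteins persist when oxygen is low. An N-terminal cysteine is exposed when methionine aminopeptidase removes the initiator methionine from a protein whose second residue is cysteine, as in the regulators of G protein signalling RGS4, RGS5 and RGS16. The coding starts of these 3 genes are shown because they carry the feature that the enzyme recognises. The first 30 coding bases, 5′ to 3′, are from the GENCODE M21 annotation of GRCm38, and capitals mark the codon for cysteine after the start codon.
Rgs4: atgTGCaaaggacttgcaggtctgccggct
Rgs5: atgTGTaagggactggcagctctgccgcac
Rgs16: atgTGCcgcaccctagccaccttccccaac
All 3 genes lie on chromosome 1, Rgs4 at 169741477 to 169747642 on the minus strand, Rgs5 at 169655501 to 169695813 and Rgs16 at 153740349 to 153745468 on the plus strand. Rgs4 was not in the table used here and Rgs5 did not reach the level needed to enter the comparison, so only Rgs16 among them was measured.

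The targeted gene was read at a similar level in both genotypes. Ado (GRCm38 chromosome 10, 67544511 to 67548955, minus strand) stood at 5.22, 5.25, 5.21 and 5.37 log2 CPM in control libraries 1-1, 1-2, 2-1 and 2-2, and at 5.43, 5.43, 5.27 and 5.27 in the Ado libraries in the same order. The difference was 0.09 log2 (exact two-sided permutation test, p = 0.171; 4 against 4 libraries cannot give less than 0.0286). Guide-directed breaks usually leave short indels that a 3' tag does not read, and the value therefore tests neither the knockout nor the sample labels. None of the other 7 measured genes within 1000000 bases of Ado was called (adjusted p under 0.05), and the one with the smallest p was Rtkn2, at -0.86 ± 0.35 (SE; adjusted p = 0.429) in limma's test.

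The untreated libraries held an estimated 4640000 to 6660000 tags, with 617 to 947 genes of each at the table's lowest value. Correlations across genes were 0.972 to 0.973 between the 2 libraries of a guide, 0.964 to 0.973 between guides of 1 genotype and 0.960 to 0.972 between genotypes. Library Ado 1-1 stood apart: it was the deepest, and the 10 leukocyte markers present in the table, of 21 listed, summed to 61.2 CPM in it against 9.18 to 29.7 CPM in the other 7 untreated libraries. Ptprc, the leukocyte antigen CD45, had an estimated 85 tags in Ado 1-1 and 4 to 33 in the others, and Nkg7, a cytotoxic lymphocyte gene, had 76 against 1 to 15. Not every marker of the list peaked there: Itgam read 1.81 log2 CPM in Ado 1-1 and 1.88 in Ado 2-2. Endothelial, pericyte and fibroblast markers also summed highest in Ado 1-1, to 63.2 CPM against 37.4 to 45.3 CPM in the other untreated libraries. In that list Cspg4 read 4.32 to 5.16 log2 CPM across the untreated libraries. Pdgfra and Thy1 peaked in Ado 1-1, at 3.39 and 3.16 log2 CPM. Eng and Pdgfrb did not: Eng read 1.22 there and 2.00 in control 2-2, and Pdgfrb 1.81 there and 2.05 in Ado 2-2. Cd4, Csf1r and Itgax were not in the table used here. The part of these transcripts in the results was not tested. Values without this library are given beside some of the results. Those of the 33 called genes below that were not called without it are named with the comparison of guide populations. Of 15 colon epithelial markers 3 were in the table, and Krt8, the highest, did not exceed 1.03 log2 CPM in any untreated library.

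Between the genotypes 33 genes differed, 9 higher and 24 lower in the Ado libraries, which is 0.249% of the genes tested (0.0678% higher and 0.181% lower). Limma's moderated test over all 24 libraries was used, with guide population as a random block and Benjamini-Hochberg adjustment over 13272 genes. At an unadjusted p under 0.05, 538 genes were higher and 628 lower. The median size of the 33 differences was 0.493 log2, and 4 exceeded 1 log2: Ptgds, Cox6a2, Rapgef3 and Col5a3, all lower. In all 33 genes, which were selected on these libraries, the 4 Ado libraries lay wholly above or below the 4 control libraries. The same held in 6.34% of all genes tested. That separation by itself fixes the same sign in all 4 pairings of an Ado guide with a control guide.

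**Figure D1:**
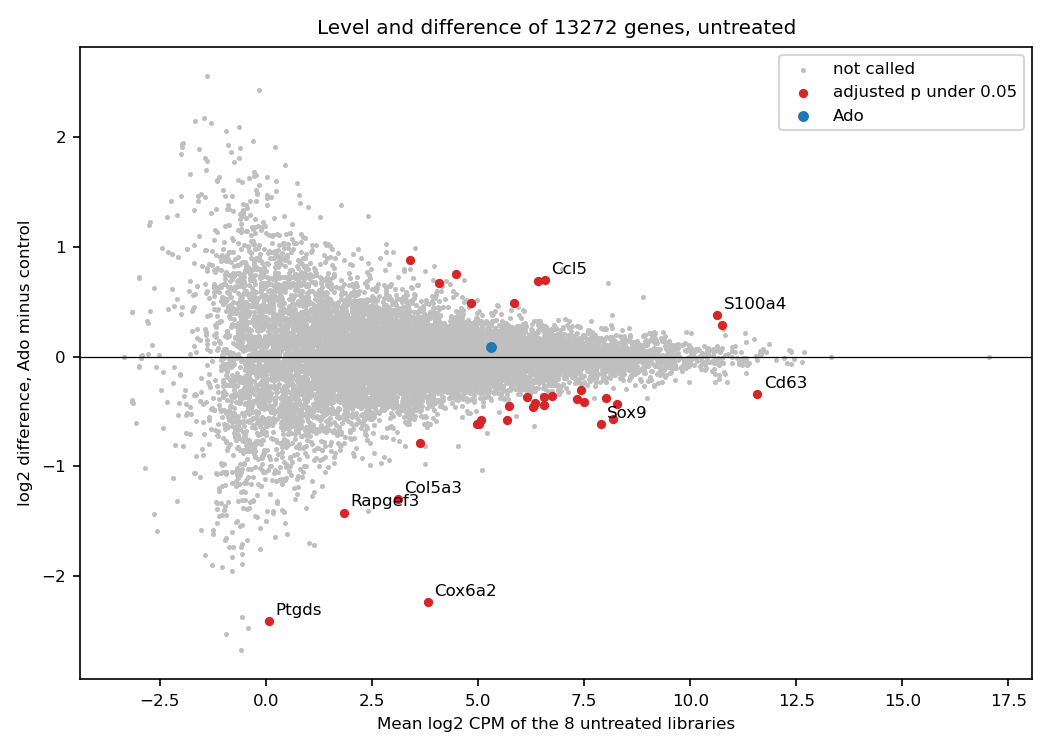
Mean log2 CPM of the 8 untreated libraries (x) against the log2 difference, Ado minus control (y), for 13272 genes; red points are the 33 with adjusted p under 0.05 and the blue point is Ado. Cox6a2 lies far below genes of its level, Ptgds stands at the low end of expression, and Ado sits at 0.09.

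**Figure D2:**
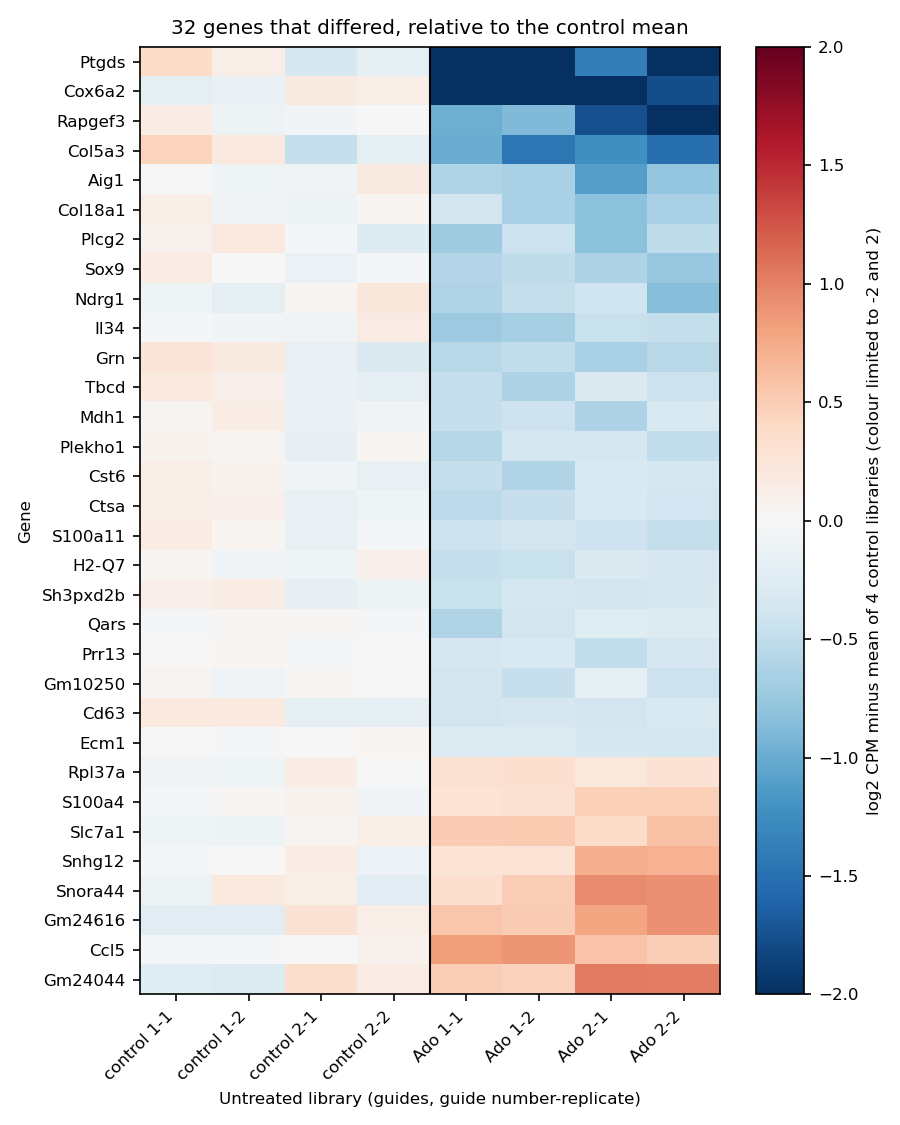
32 of the 33 genes (rows, ordered by difference) in the 8 untreated libraries (columns), as log2 CPM minus the mean of the 4 control libraries; colours are limited to -2 and 2. Every gene drawn changes colour at the line between control and Ado libraries; the 3 small nucleolar RNAs and Snhg12 are darkest in Ado 2-1 and Ado 2-2.

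Among genes of energy metabolism, Cox6a2 showed the clearest difference of the comparison. Cox6a2 (chromosome 7, 128205435 to 128206387, minus strand) encodes the heart and skeletal muscle isoform of cytochrome c oxidase subunit 6A. It stood at 4.76, 4.81, 5.12 and 5.07 log2 CPM in the control libraries and at 2.74, 2.12, 2.76 and 3.17 in the Ado libraries, so that the highest Ado library lay well below the lowest control library. The difference was -2.24 ± 0.21 (SE; adjusted p = 6.53e-08), a 4.72-fold lower level. It was the only 1 of 26 measured cytochrome oxidase subunit and assembly genes that was called. The median over the 26 was -0.015 log2 against 0.005 for all genes, and the next by p, Cox7a2l, was at 0.19 (adjusted p = 0.515). Of 68 nuclear genes of the respiratory chain and 13 mitochondrially encoded genes none was called by limma. At an unadjusted p under 0.05, 1 and 0 were higher and 3 and 1 lower. The fit with guides as fixed terms, which called 132 of all genes (0.995%), called 1 of these nuclear genes lower. The error of that fit comes only from libraries of 1 guide, so its calls here and below do not cover the spread between guide populations. Cox6a2 overlaps Itgad on the opposite strand, and Itgad did not enter the comparison. Mdh1 (chromosome 11, 21556787 to 21572367, minus strand), the cytosolic malate dehydrogenase, fell by 0.45 log2 to 5.50, 5.54, 5.35 and 5.66 from 6.02, 6.11, 5.83 and 5.89, with an adjusted p of 0.027; it overlaps Wdpcp on the opposite strand.

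Among WNT targets and colon stem cell factors, Sox9 fell. Sox9 (chromosome 11, 112782224 to 112787760, plus strand) encodes a transcription factor of intestinal progenitors and of cartilage. Its control values were 8.36, 8.21, 8.09 and 8.16 log2 CPM and its Ado values 7.62, 7.70, 7.59 and 7.45, with no overlap and little spread among the 4 Ado libraries. The difference was -0.61 ± 0.08 (SE; adjusted p = 1.61e-04), 1.53-fold lower. No other of the 14 measured WNT targets and colon stem cell factors was called, and their median was 0.065 log2, or 0.028 without Ado 1-1.

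Among chemokines and cytokines Ccl5 rose and Il34 fell. Ccl5 (chromosome 11, 83525778 to 83530518, minus strand), a chemokine that attracts T cells, read 6.19, 6.19, 6.23 and 6.32 log2 CPM in the control libraries and 7.07, 7.12, 6.81 and 6.73 in the Ado libraries. It rose 1.62-fold, by 0.70 ± 0.10 (SE; adjusted p = 5.40e-04); both Ado guide 1 libraries were above both Ado guide 2 libraries, and all 4 were above the controls. Without Ado 1-1, the library with the high leukocyte markers, the rise was 0.66 log2 (adjusted p = 0.00466). Il34 (chromosome 8, 110741829 to 110805924, minus strand), a ligand of the macrophage receptor CSF1R, fell from 5.93, 5.92, 5.91 and 6.14 to 5.25, 5.32, 5.54 and 5.50, a difference of -0.58 ± 0.10 (SE; adjusted p = 0.00585). These were the 2 called among 18 measured chemokines and cytokines, whose median difference was 0.175 log2. That median was 0.106 without Ado 1-1, -0.0968 without control guide 1 and 0.585 without control guide 2. The T cell chemokine Cxcl10 was at 3.21 ± 0.33 log2 CPM in control and 3.73 ± 0.35 in Ado libraries (SD, n = 4) and missed the threshold (adjusted p = 0.223).

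The collagen chain genes Col5a3 and Col18a1 fell. Col5a3 (chromosome 9, 20770050 to 20815067, minus strand), a type V chain, read 4.20, 3.96, 3.30 and 3.59 log2 CPM in control and 2.77, 2.31, 2.54 and 2.26 in Ado libraries, at -1.29 ± 0.22 (SE; adjusted p = 0.00445). Col18a1 (chromosome 10, 77052178 to 77166548, minus strand), whose C-terminal fragment is endostatin, was at -0.62 ± 0.13 (SE; adjusted p = 0.027); it overlaps Slc19a1 on the opposite strand. In contrast Col5a1, the partner chain of type V collagen, stood at 3.58, 4.01, 4.29 and 4.12 in control and 4.76, 4.61, 4.74 and 4.54 in Ado libraries, a difference of 0.66 that was not called (adjusted p = 0.174). Control and Ado libraries did not overlap for Col5a1, whereas the values of Col5a3 went the other way. Ecm1, a secreted glycoprotein of skin and vessels, fell by 0.31 log2 (adjusted p = 0.0397) and Sh3pxd2b, a scaffold of invadopodia, by 0.37 (adjusted p = 0.0162). Cst6, a secreted inhibitor of cysteine proteases, fell by 0.43 (adjusted p = 0.0195). In the collagen and matrix list, which holds Col18a1 but not Col5a3, 1 of 34 genes rose and 1 fell, with a median of 0.003 log2. At an unadjusted p under 0.05 in limma 6 were higher (17.6%) and 5 lower (14.7%), against 4.05% and 4.73% of all genes tested. All Ado libraries lay above all control libraries in 4 and below them in 4, against 2.83% and 3.52%. The fit with guides as fixed terms called 2 higher and 2 lower, against 0.995% of all genes called in either direction.

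Grn, Ctsa and Cd63, which encode lysosomal and vesicle proteins, fell. Grn (chromosome 11, 102430315 to 102437048, plus strand), which encodes progranulin, a secreted glycoprotein processed in lysosomes, read 8.72, 8.66, 8.31 and 8.19 log2 CPM in control and 7.92, 7.97, 7.81 and 7.91 in Ado libraries. The difference was -0.56 ± 0.10 (SE; adjusted p = 0.00445); the libraries of control guide 2 lay closer to the Ado libraries than those of control guide 1. Ctsa (chromosome 2, 164832873 to 164841032, plus strand), the lysosomal protective protein cathepsin A, fell by 0.42 log2 (adjusted p = 0.027). Cd63 (chromosome 10, 128900989 to 128912822, plus strand), a tetraspanin of late endosomes and exosomes, read 11.95, 11.95, 11.56 and 11.56 in control and 11.40, 11.42, 11.40 and 11.45 in Ado libraries, and fell by 0.34 (adjusted p = 0.027). Grn and Cd63 were the 2 of the 33 genes that also differed between the control guides. Grn overlaps Fam171a2, and Ctsa overlaps Neurl2, on the opposite strand.

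Calcium-binding S100 genes split. S100a4 (chromosome 3, 90603771 to 90606045, plus strand), a marker of mesenchymal and metastatic cells, rose from 10.41, 10.48, 10.52 and 10.40 to 10.72, 10.75, 10.92 and 10.92 log2 CPM, at 0.38 ± 0.07 (SE; adjusted p = 0.00557). S100a11 (chromosome 3, 93520488 to 93526287, plus strand) fell from 7.85, 7.73, 7.55 and 7.68 to 7.30, 7.33, 7.29 and 7.23, at -0.41 ± 0.08 (SE; adjusted p = 0.0195). Of 10 measured S100 genes these 2 were called. Among 14 genes of epithelial and mesenchymal state S100a4 was the only call; Twist2, a mesenchymal transcription factor, read 6.50, 6.71, 6.81 and 6.84 in control and 7.00, 7.07, 7.05 and 7.08 in Ado libraries and missed the threshold (adjusted p = 0.0899).

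Rapgef3, Plcg2 and Ndrg1 fell and Slc7a1 rose. Rapgef3 (chromosome 15, 97744770 to 97767972, minus strand), the cyclic AMP sensor EPAC1, read 2.70, 2.46, 2.51 and 2.56 log2 CPM in control and 1.58, 1.68, 0.79 and 0.50 in Ado libraries, from an estimated 26 to 31 and 6 to 19 tags, and fell 2.68-fold, at -1.42 ± 0.29 (SE; adjusted p = 0.02). Plcg2, a phospholipase C, fell by 0.62 log2 (adjusted p = 0.0236). Ndrg1 (chromosome 15, 66929318 to 66969640, minus strand), a stress and hypoxia responsive gene, fell from 5.28, 5.19, 5.41 and 5.60 to 4.77, 4.90, 4.97 and 4.53, at -0.58 ± 0.11 (SE; adjusted p = 0.0162). Of 37 hypoxia-inducible genes 1 rose and 1, Ndrg1, fell, and their median was 0.033 log2, or 0.0121 without Ado 1-1. Slc7a1 (chromosome 5, 148327410 to 148399904, minus strand), the cationic amino acid transporter CAT1, rose from 5.51, 5.50, 5.65 and 5.74 to 6.10, 6.12, 5.96 and 6.19, at 0.49 ± 0.10 (SE; adjusted p = 0.0162), as the only call among 15 amino acid transporter genes. Ptgds, a prostaglandin D synthase, had the largest fitted difference, -2.41 ± 0.54 (SE; adjusted p = 0.0426), which rested on an estimated 10 to 14 tags in control and 1 to 4 in Ado libraries. The remaining lower genes were Aig1 (-0.78), Tbcd (-0.46), Plekho1 (-0.44), Qars (-0.37), which encodes glutaminyl-tRNA synthetase, Prr13 (-0.37) and the processed pseudogene Gm10250 (-0.36), in log2, with adjusted p from 0.0236 to 0.0498. The ribosomal protein gene Rpl37a rose by 0.29 log2 (adjusted p = 0.0368), 1 of 85 ribosomal protein genes.

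Of 24 class I antigen presentation genes H2-Q7 alone was called in limma, and it fell. H2-Q7 (chromosome 17, 35439155 to 35443773, plus strand), a non-classical class I heavy chain whose sequence is close to other H2-Q genes so that tags can be shared, read 7.56, 7.48, 7.44 and 7.64 log2 CPM in control and 7.07, 7.09, 7.24 and 7.19 in Ado libraries, at -0.38 ± 0.08 (SE; adjusted p = 0.027). B2m, the light chain of all class I molecules, read 9.18, 9.19, 9.15 and 9.15 in control and 8.96, 8.76, 8.74 and 8.71 in Ado libraries, at -0.38 ± 0.09 (SE; adjusted p = 0.073). The classical heavy chain genes H2-K1 and H2-D1 differed by -0.27 and -0.27 (adjusted p = 0.174 and 0.273), and the groups did not overlap for either. In the list 16 differences were negative and 8 positive, and 6 genes were lower and 1 higher at an unadjusted p under 0.05. All Ado libraries lay below all control libraries in 7 of the 24, against 3.52% of all genes tested, and above them in 2, against 2.83%. The fit with guides as fixed terms called 3 lower and none higher, against 0.995% of all genes called in either direction. The median was -0.199 log2 against 0.005 for all genes. Without Ado 1-1 no gene of the list was called and the median was -0.222. H2-Q7 was then at -0.36 (adjusted p = 0.0992) and B2m at -0.44 (adjusted p = 0.0518). The median was -0.0766 without Ado guide 2 and -0.246 without Ado guide 1, and in both fits H2-Q7 was not called. It was -0.12 without control guide 1 and -0.15 without control guide 2.

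No gene of the interferon-stimulated list was called. The list also held interferon receptor and signalling genes, such as Ifnar1, Ifngr1, Jak1 and Tyk2. Of its 52 measured genes, 12 were higher at an unadjusted p under 0.05 in limma and none was lower. The fit with guides as fixed terms called 3, all higher, against 0.995% of all genes called in either direction. The median difference was 0.248 log2. Usp18, a protease that removes ISG15, read 3.37, 3.37, 3.42 and 2.77 log2 CPM in control and 4.00, 3.92, 3.85 and 3.77 in Ado libraries, at 0.65 ± 0.17 (SE; adjusted p = 0.095). Irf7, an interferon response transcription factor, differed by 0.64 (adjusted p = 0.201), and its 4 Ado values lay above all control values. Of the 52 genes, all Ado libraries lay above all control libraries in 4 and below them in 0, against 2.83% and 3.52% of all genes tested. Isg15 itself read 5.84, 5.70, 5.50 and 5.83 in control and 6.48, 6.47, 5.94 and 5.80 in Ado libraries (adjusted p = 0.209), and Ado 2-2 lay within the control range. Without Ado 1-1 the list's median was 0.151, with 7 genes higher at an unadjusted p under 0.05, and without both Ado guide 1 libraries and their treated counterparts it was 0.132, with 3 genes higher at an unadjusted p under 0.05.

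The promoters of 2 class I genes and 2 interferon-stimulated genes are shown because the medians of these lists lay on opposite sides of 0 although both hold targets of interferon. Each line gives 250 bases before the start of the gene, 5′ to 3′ in the direction of the gene, from RefSeq (GRCm38.p6), and capitals mark matches to the NF-kB site or to the interferon-stimulated response element (ISRE, GAAANNGAAA), searched on both strands with overlapping matches allowed.
H2-Q7 (chr17:35438905-35439154, plus strand): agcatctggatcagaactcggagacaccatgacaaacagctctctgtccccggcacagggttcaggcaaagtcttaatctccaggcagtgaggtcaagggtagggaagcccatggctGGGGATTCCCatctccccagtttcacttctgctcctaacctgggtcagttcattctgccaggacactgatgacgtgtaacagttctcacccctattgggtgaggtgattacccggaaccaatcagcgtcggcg
B2m (chr2:122147437-122147686, plus strand): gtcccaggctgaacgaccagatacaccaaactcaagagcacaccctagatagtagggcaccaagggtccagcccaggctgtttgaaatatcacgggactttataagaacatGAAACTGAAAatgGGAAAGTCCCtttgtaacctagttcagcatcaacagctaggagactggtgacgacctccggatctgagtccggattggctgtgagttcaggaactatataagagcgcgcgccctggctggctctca
Ifit1 (chr19:34640639-34640888, plus strand): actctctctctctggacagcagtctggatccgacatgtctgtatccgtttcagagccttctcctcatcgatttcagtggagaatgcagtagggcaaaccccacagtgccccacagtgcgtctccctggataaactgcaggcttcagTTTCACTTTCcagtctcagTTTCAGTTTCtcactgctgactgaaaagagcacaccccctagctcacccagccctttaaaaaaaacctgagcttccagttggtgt
Isg15 (chr4:156200819-156201068, minus strand): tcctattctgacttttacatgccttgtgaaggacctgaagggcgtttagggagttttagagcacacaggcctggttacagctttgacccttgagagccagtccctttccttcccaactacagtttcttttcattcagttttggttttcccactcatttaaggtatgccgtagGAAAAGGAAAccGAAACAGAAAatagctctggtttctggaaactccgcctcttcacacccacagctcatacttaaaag
H2-Q7 holds an NF-kB match and no match to GAAANNGAAA, B2m holds both, and Ifit1 and Isg15 hold ISRE matches alone. Only exact matches to GAAANNGAAA were counted. Response elements that vary from this pattern were not seen, so a window without a match may still hold one. Promoter windows were matched for 8720 of the 13272 genes. An NF-kB match stood in 9 of 21 class I genes (42.9%) and 8 of 41 genes of the interferon-stimulated list (19.5%), against 10.6% of all genes matched. An ISRE match stood in 3 of the 21 (14.3%) and 16 of the 41 (39.0%), against 3.25%. Of the 33 called genes 21 had a window; 3 of the 17 lower genes (Grn, H2-Q7 and Ptgds) and none of the 4 higher genes held an NF-kB match.

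The genes of the enzyme's own pathways were little different. Of 12 measured Arg/N-degron genes none was called by limma, and 1, Rgs16, was lower at an unadjusted p under 0.05; the list's median was 0.035 log2. Rgs16, a GTPase activator that shortens G protein signals, read 2.61, 2.52, 2.41 and 2.25 log2 CPM in control and 2.80, 1.30, 1.44 and 1.31 in Ado libraries, from an estimated 23 to 29 and 11 to 44 tags. Ado 1-1 was above every control and the other 3 Ado libraries were below every control, and the difference was -0.74 ± 0.28 (SE; adjusted p = 0.363). Without Ado 1-1 it was -1.11 (adjusted p = 0.0367), and the gene was then called; after TNF the difference was -0.38 at 1 h and -0.37 at 6 h (adjusted p = 0.538 and 0.681). Of 16 measured genes for coenzyme A, cysteamine and taurine metabolism none was called, 1 was lower at an unadjusted p under 0.05 (Coasy, coenzyme A synthase, at -0.22; none without Ado 1-1) and the median was 0.009 log2. Genes whose second codon is cysteine, the group that could yield an N-terminal cysteine, numbered 80 of 10749 measured coding genes (0.744%). None of the 80 was called, 4 were higher and 6 lower at an unadjusted p under 0.05, and their median was 0.021 log2. These are transcript levels and say nothing of the stability of the proteins.

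Targets of TNF and of cell stress in cells that had not received TNF were also compared. Of 30 measured NF-kB subunit and feedback genes none was called, none was higher and 2 were lower at an unadjusted p under 0.05, with a median of 0.006 log2; Tnip1, an A20-binding inhibitor, had the smallest p, at -0.49 ± 0.14 (SE; adjusted p = 0.152). Of 33 TNF receptor complex and death pathway genes none was called, with 1 higher and 1 lower at an unadjusted p under 0.05. The survival gene Bcl2 read 3.05, 2.41, 2.87 and 3.12 log2 CPM in control and 3.88, 3.28, 3.89 and 3.52 in Ado libraries. The groups did not overlap, and the difference missed the threshold, at 0.78 ± 0.20 (SE; adjusted p = 0.0797). Of these 33 genes, all Ado libraries lay above all control libraries in 1 and below them in 0, against 2.83% and 3.52% of all genes tested. Of 33 ATF4 and unfolded protein response genes none was called, 6 were higher and 1 lower at an unadjusted p under 0.05, and the median was 0.121 log2. Psat1, of serine synthesis, was at 0.25, Atf4 at 0.16, the amino acid transporter subunit Slc3a2 at 0.24 and the stress factor Ddit3 at -0.32 log2. Of 33 sterol and fatty acid synthesis genes none was called and 4 were lower at an unadjusted p under 0.05, led by Fdps at -0.33 (adjusted p = 0.114). No gene among 26 p53 targets was called, and none had an unadjusted p under 0.05. With guides as fixed terms the calls were 1 lower of the NF-kB genes, 1 higher of the TNF receptor genes, 1 lower of the sterol genes and 0 of the Arg/N-degron, cysteamine, ATF4 and p53 lists.

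Other gene groups gave no call in limma. Of 47 immediate-early genes 4 were higher and 0 lower at an unadjusted p under 0.05, of 41 genes of S phase and mitosis 3 and 0, and of 31 NRF2 and glutathione genes 2 and 1. Of 31 actin cytoskeleton and SRF target genes 3 were higher and 2 lower, of 17 BMP and TGF-beta targets 1 and 0, and of 17 integrin and adhesion genes 1 and 1. Of 20 mitochondrial tRNA synthetase genes 1 was higher and 0 lower, and of 14 circadian clock genes 1 and 1. Without Ado 1-1, 1 immediate-early gene, 1 actin gene and no BMP and TGF-beta target were higher, and no clock gene was lower, at an unadjusted p under 0.05. The shares with all libraries stood beside 4.05% higher and 4.73% lower among all genes tested. With guides as fixed terms 1 immediate-early gene and 1 actin gene were called higher, 1 actin gene and 1 integrin gene lower, and 0 of the other 5 groups.

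**Figure D3:**
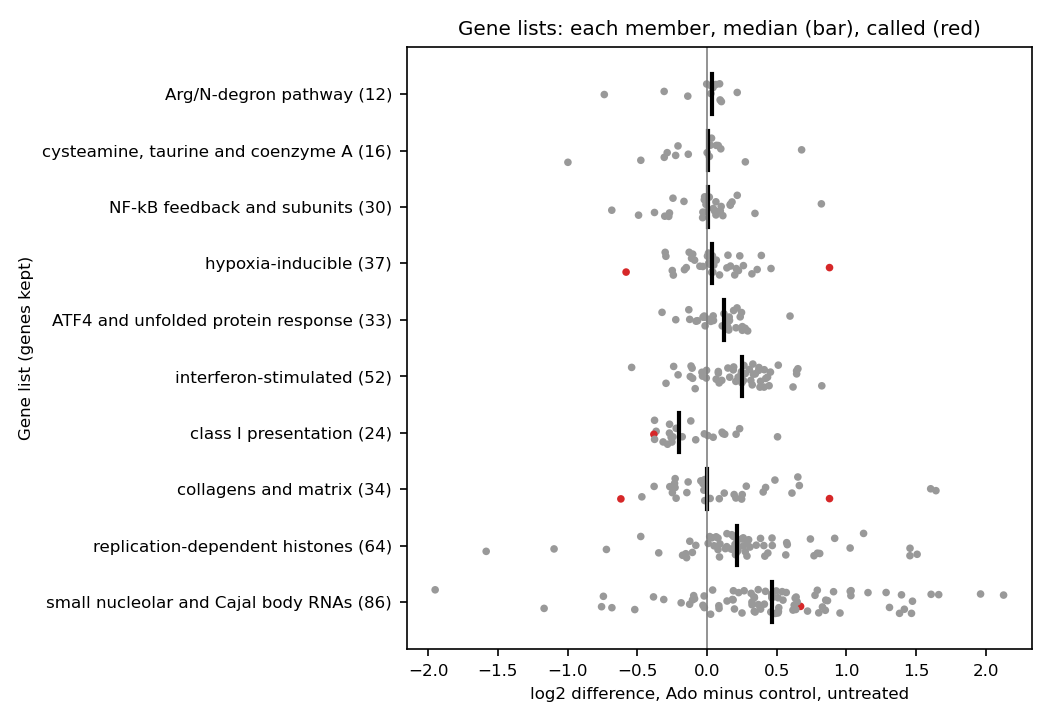
Log2 difference, Ado minus control, of each measured member of 10 gene lists in untreated cells (grey points; red for adjusted p under 0.05) with the list's median as a bar. The medians of the small nucleolar RNA (0.465 over 86 members listed by symbol), interferon (0.248) and histone (0.216) lists lie above 0 and that of the class I list (-0.199) below.

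Small nucleolar RNAs (snoRNAs), which guide the modification of ribosomal and spliceosomal RNA, had a median difference above 0 in the Ado libraries, and 3 of 216 passed the test in limma. These 3 of the 9 rises were Gm24616 (chromosome 16, 23111617 to 23111755, plus strand), Gm24044 (chromosome 9, 120128780 to 120128935, plus strand) and Snora44 (chromosome 4, 132309941 to 132310069, plus strand); Snhg12, the long non-coding host transcript of Snora44, also rose. Gm24616 read 5.85, 5.85, 6.36 and 6.20 log2 CPM in control and 6.62, 6.58, 6.86 and 6.98 in Ado libraries, at 0.69 ± 0.11 (SE; adjusted p = 0.00343). Gm24044 read 3.88, 3.84, 4.47 and 4.27 in control and 4.61, 4.58, 5.15 and 5.14 in Ado libraries, at 0.76 ± 0.16 (SE; adjusted p = 0.0236), with all 4 Ado libraries above the controls and both Ado guide 2 libraries above both of guide 1. Snora44 and Snhg12 were at 0.67 and 0.49 (adjusted p = 0.0306 and 0.0464). They have separate values but lie on the same strand at 1 locus, so tags of 1 could be counted for the other, which was not tested. Gm24616 lies within Eif4a2 and Gm24044 within Rpsa, on the same strand, and these host genes were at -0.01 and 0.06 log2 (adjusted p = 0.992 and 0.856). Of 216 measured snoRNAs by GENCODE biotype 3 were called higher and none lower, 63 were higher and 2 lower at an unadjusted p under 0.05, and the median was 0.464 log2, against 0.005 for all genes. Without Ado guide 2 the median was 0.212, with 0 calls and 16 higher and 14 lower at an unadjusted p under 0.05; without Ado guide 1 it was 0.733, with 17 calls, and without Ado 1-1 0.595, with 7. The fit with guides as fixed terms called 23 higher and 1 lower, against 0.995% of all genes called in either direction. Without control guide 2, 18 were called higher and 1 lower, and without control guide 1, 2 were called higher. Summed small structural RNAs made up 0.249% to 0.289% of the normalised CPM in control libraries, 0.271% and 0.277% in Ado guide 1 and 0.373% and 0.366% in Ado guide 2 libraries. Of 64 replication-dependent histone genes none was called in limma, 21 were higher and 1 lower at an unadjusted p under 0.05, and the median was 0.216 log2; the fit with guides as fixed terms called 1 higher. Hist1h2af, a gene of histone H2A, read 7.84, 7.94, 8.09 and 8.09 in control and 8.13, 8.14, 8.46 and 8.39 in Ado libraries. The histone median was 0.07 without Ado guide 2 and 0.354 without Ado guide 1. Most snoRNAs and these histone transcripts carry no poly(A) tail, so a 3' tag library reads few of them, and the part of priming and RNA preparation in these values was not tested.

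**Figure D4:**
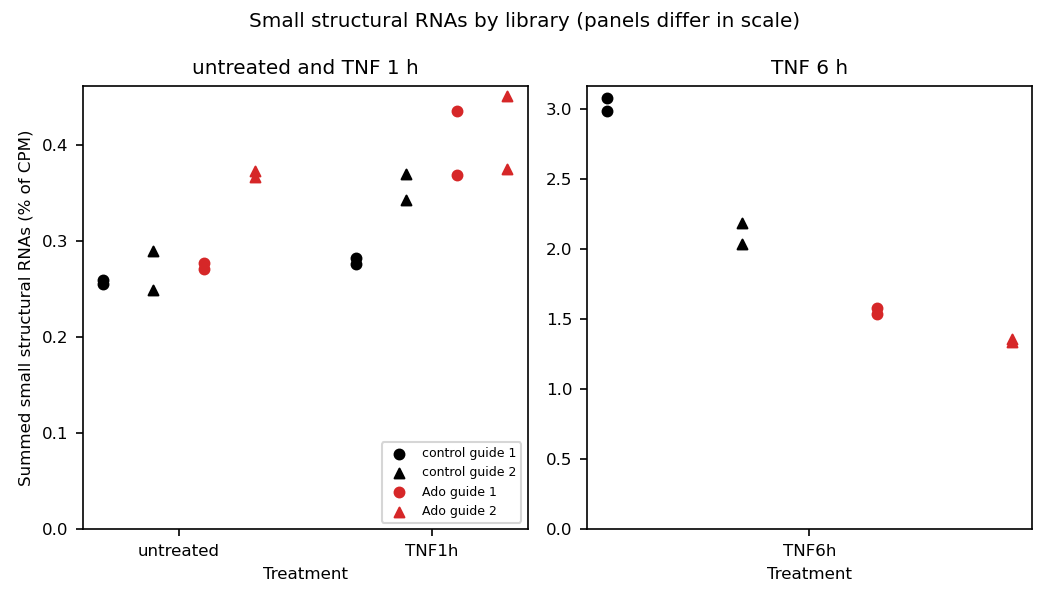
Small structural RNAs summed as a percentage of CPM (y) in each library, by guide population and treatment; the panel of TNF 6 h has another scale. The untreated Ado guide 2 libraries (0.373% and 0.366%) lie above the other 6 untreated libraries, whereas at 6 h all 4 Ado libraries (1.34% to 1.58%) lie below the controls (2.04% to 3.08%).

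The 33 genes were followed into the cells given TNF, which were other libraries of the same 4 guide populations. At 1 h, 141 genes (1.06%) differed between the genotypes and at 6 h 135 (1.02%). All 33 had the same sign at 1 h and 29 at 6 h. At 1 h 9 of the 33 were called in the same direction, which is 27.3% of the 33 and 6.38% of the 141. At 6 h 6 were called in the same direction, 18.2% of the 33 and 4.44% of the 135. Cox6a2, Sox9, Il34 and Ecm1 were called in untreated cells and at both times. Cox6a2 was at -2.04 log2 at 1 h and -2.08 at 6 h (adjusted p = 6.39e-07 and 4.07e-07), and Sox9 at -0.52 and -0.69 (adjusted p = 0.00117 and 1.21e-05). Il34 was at -0.45 and -0.44, and Ecm1 at -0.46 and -0.35. Ccl5 was at 0.85 at 1 h (adjusted p = 1.57e-05) and at 0.33 at 6 h (adjusted p = 0.125). The median ratio of the later to the untreated difference over the 33 was 0.548 at 1 h and 0.479 at 6 h; the genes were selected on their untreated values.

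The test of a change in the genotype difference called no gene at 1 h (0%; 1304 genes had an unadjusted p under 0.05 in limma, and the fit with guides as fixed terms also called 0) and 46 at 6 h (0.347%), all with a lower difference at 6 h. Of the 46, 4 were among the 33: Gm24616, Gm24044, Snora44 and Snhg12 were higher in untreated Ado cells and lower in Ado cells at 6 h. The changes were -1.49 ± 0.15 (SE; adjusted p = 9.15e-07) for Gm24616 and -1.09 ± 0.15 (SE; adjusted p = 1.38e-04) for Snhg12. Small structural RNAs, which were 334 of the 13272 genes tested, made up 34 of the 46. These comparisons share the untreated libraries, and the labels give no untreated library matched to 6 h.

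**Figure D5:**
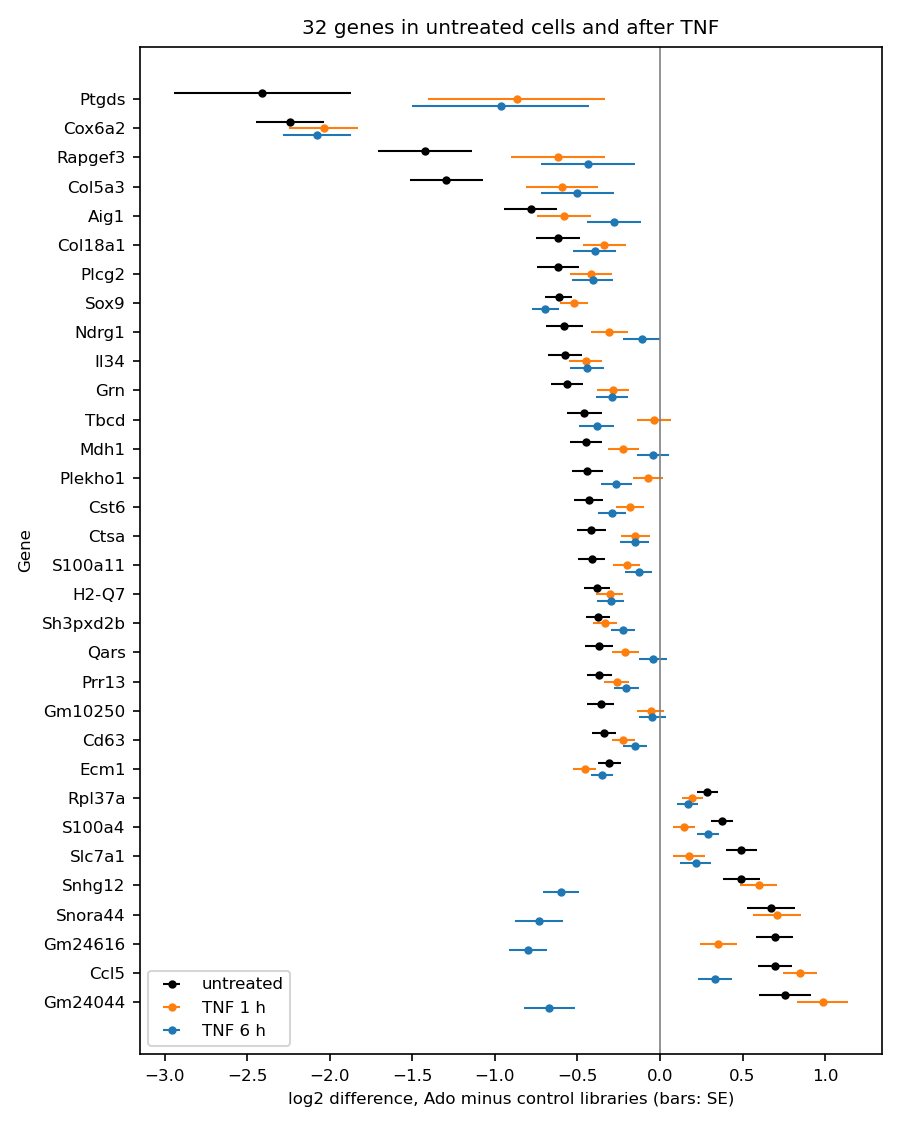
Log2 difference, Ado minus control, with its SE, of 32 of the 33 genes (rows) in untreated cells (black), at TNF 1 h (orange) and at TNF 6 h (blue). Cox6a2 and Sox9 keep their difference at each time, and the 3 small nucleolar RNAs and Snhg12 cross to the other side of 0 at 6 h.

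The guide populations of 1 genotype differed too. Ado guide 2 against Ado guide 1 gave 16 calls (0.121%) and control guide 2 against control guide 1 gave 119 (0.897%), in a fit of guide and treatment means whose error comes only from libraries of 1 guide. In that fit the genotypes differed for 132 genes (0.995%), the 33 included. With 1 mean per guide population and treatment as the unit, 2 genes were called, Cox6a2 and Sox9. Cox6a2, Sox9 and Ccl5 were the genes called in each of the 4 fits without 1 guide population. Without control 1-1, control 1-2 or Ado 2-2 the number called was 11, 12 or 13. There were 9 genes, among them Cox6a2, Sox9, Ccl5, Gm24616, Col5a3, Grn, S100a4 and Il34, called in all 8 fits without 1 untreated library, and the other 24 lost the call in at least 1. Without Ado 1-1 25 genes were called, 12 higher and 13 lower, 20 of them among the 33. Cd63, Ctsa, Ecm1, Gm10250, H2-Q7, Mdh1, Plcg2, Plekho1, Ptgds, Qars, Rpl37a, Sh3pxd2b and Tbcd were then not called. Their adjusted p in limma's test without Ado 1-1 ranged from 0.0509 (Sh3pxd2b) to 0.196 (Qars).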

How the data were processed

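RNA from MC38 cells with control or Ado guides, untreated or given TNF, was profiled in 24 libraries (6 groups of 4) with a QuantSeq 3' mRNA kit, per the labels' protocols. The deposited table gives log2 CPM values per gene, which the authors had normalised; the unlogged values summed to 998900 to 999014 per library with the same lowest (-3.349) and highest (17.04) value in each, from which quantile normalisation was inferred. Per the submitters' processing notes, the tools were limma, featureCounts, Subread, HISAT2, cutadapt 1.7 and FastQC and the builds mm10 and GRCm38, with no role or order given. Depth was not stated and was estimated from the spacing of low values (whole tags from 10 to 20, offset 0.5).

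Values were used as deposited for genes at 0 or more in at least 4 libraries. Limma 3.58.1 (R 4.3.3, statmod 1.5.0) fitted 6 group means with the 4 guide populations as a random block (correlation 0.0485), moderated variances with a trend, and two-sided tests adjusted by Benjamini-Hochberg over all genes kept, at 0.05. Guides of a genotype were compared in a fit with 1 mean for each guide population at each treatment. The fit was tested on simulated data. The named genes were Ado, genes within 1000000 bases of it, all called genes where 40 or fewer were called, and the 4 list members, or fewer, that had the smallest p in each list (156 in all, of which the text gives a part, and 1 called gene is not reported here; Ifit1, Eif4a2, Rpsa and the other RGS genes are named for their sequence or position). Gene lists and comparisons were chosen with earlier results of these data known. Positions and biotypes came from GENCODE M21, where 15207 symbols matched 1 gene, 41 several and 142 none. Promoters came from the RefSeq table of GRCm38.p6.

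Replicate numbers were not used as pairs: deviations of libraries with the same number correlated at -0.0703 to 0.177 over 6 pairs. Python 3.11.15 and matplotlib 3.10.9 drew the figures. Alternatives to the guide block, filter, scale, variance model and set of libraries were tried.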

Additional observations from a re-analysis of the deposited data

Results flagged for a closer look

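In groups of 4 untreated libraries the highest or lowest library of a named gene was set against the other 3 with Dixon's ratio at its usual critical value, which chance passes in about 1 in 20 groups; 6 of 126 groups passed. Among genes that were called, Il34 read 6.14 log2 CPM in control 2-2 against 5.91 to 5.93 in the other control libraries, and Plekho1 read 6.61 in control 2-1 against 6.81 to 6.85. Among genes that were not called, Rgs16 read 2.80 in Ado 1-1 against 1.30 to 1.44 in the other Ado libraries, and Nkg7 read 3.6 in the same library against -0.127 to 0.413. Usp18 read 2.77 in control 2-2 against 3.36 to 3.42, and Irf7 4.07 in Ado 2-1 against 4.57 to 4.65.

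Of the 46 genes whose genotype difference changed between untreated cells and TNF 6 h in limma's interaction test, 6 were among the named genes: Gm24616 changed by -1.49 log2 (adjusted p = 9.15e-07), Gm24044 by -1.43 (adjusted p = 3.08e-04), Snora44 by -1.41 (adjusted p = 1.38e-04), Snhg12 by -1.09 (adjusted p = 1.38e-04), Snora68 by -1.77 (adjusted p = 0.0121) and Snora47 by -1.57 (adjusted p = 6.23e-04). Each was higher in untreated Ado cells and lower in Ado cells at 6 h.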

How the results depend on the processing

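Over 26 other settings each of the 33 genes called in untreated cells kept its sign in every setting that measured it. The groups did not overlap for these genes, so leaving out or averaging libraries could not reverse the sign. The number of genes called in untreated cells, 33 in the report, ranged from 2 to 139. It was 132 with guide populations as fixed terms, 77 with library weights and 139 without control guide 2. It was 13 with only the 8 untreated libraries, 10 of them among the 33, and 6 with no trend in the variance. It was 3 without Ado guide 2 and 2 with 1 mean per guide population. Without Ado guide 1 it was 35, 14 of them among the 33, and without control guide 1 it was 45, 11 of them among the 33. Of the 139 without control guide 2, 26 were among the 33. Without 1 untreated library it ranged from 11 to 35, and no difference of the 33 grew by more than 1.17 times. Cox6a2 and Sox9 were called in all 26. With a replicate block it was 26, 25 of them among the 33. With guide populations as fixed terms 609 genes were called between genotypes at 1 h, 324 at 6 h and 70 in the 6 h interaction. With the 8 untreated libraries alone the guides differed for 157 genes (Ado) and 354 (control). Leaving out 1 library moved the difference of Ado between 0.06318 and 0.1269 log2. The sign of Ptprc reversed without Ado guide 1 (-0.24) and without control guide 2 (-0.21), and that of Nkg7 without Ado guide 1 (-0.12), without control guide 2 (-0.18) and without Ado 1-1 (-0.26, the lowest of a range up to 1.11 over the fits without 1 library); neither was called. The cause of these shifts was not tested. The alternatives for Ado, for the 1 h and 6 h comparisons, for the interaction with the replicate block and for the lists were chosen after seeing the data. Differences of genes with under 20 estimated tags, such as Ptgds, are imprecise at this depth.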
